A study of Mus musculus with 9 samples.

Results

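The cyclic nucleotide phosphodiesterases (PDEs) that lie outside the PDE4 family were examined in Δ*Gnas* and WT dendritic cells (DCs). They were 10 genes chosen by symbol, *Pde1b*, *Pde2a*, *Pde3a*, *Pde3b*, *Pde5a*, *Pde7a*, *Pde7b*, *Pde8a*, *Pde8b* and *Pde10a*, out of 30588 named genes in the expression table. RNA-Seq was performed on 4 Δ*Gnas* cultures (replicates 3, 4, 6 and 7) and 5 WT cultures (replicates 3 to 7). All were C57BL/6J mouse bone marrow cells kept for 6 days in granulocyte-macrophage colony-stimulating factor (GM-CSF) and then selected with beads for CD11c, an integrin carried by DCs, and no agonist was added. Δ*Gnas* mice carry Gnas fl/fl alleles and a Cre transgene driven by the CD11c promoter, so the deletion is limited to cells in which that promoter has been active, and the study describes this Cre as leaky. *Gnas* encodes Gαs, the G protein subunit that stimulates adenylyl cyclase. By their labels, 2 Δ*Gnas* and 2 WT cultures came from male mice, and 2 Δ*Gnas* and 3 WT cultures from female mice. The ages of the mice were not given in the sources used here.

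Cyclic AMP (cAMP) and cyclic GMP (cGMP) are made by cyclases and removed by PDEs, which open the cyclic phosphate ring. PDE families differ in substrate and in what regulates them. PDE1, PDE2, PDE3 and PDE10 enzymes act on both nucleotides, PDE5 on cGMP, and PDE7 and PDE8, like PDE4, on cAMP. Because cGMP activates PDE2 and slows hydrolysis of cAMP by PDE3, and calcium with calmodulin activates PDE1, these enzymes tie cAMP to other signals, and cAMP is known to restrain the inflammatory output of DCs.

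The targeted gene followed the labels, since *Gnas* was at 48.0 to 63.6 TPM (a level corrected for transcript length and depth) in Δ*Gnas* libraries and at 404 to 532 TPM in WT libraries. The DC markers listed for the check of the cell type summed to 27374 to 33230 TPM in Δ*Gnas* and 20167 to 32501 TPM in WT libraries. Most of this sum was *Cd74*, *H2-Aa* and *H2-Ab1*, so it says little about the other markers. By edgeR 2 of 10 were higher in Δ*Gnas* DCs, *Itgax* and *H2-Ab1*, and 2 were lower, *Zbtb46* and *Ccr7*. WT replicate 7, labelled female, had 21.3 TPM of the Y-linked *Ddx3y*, against 23.9 to 41.9 TPM in the libraries labelled male. The other libraries labelled female had 0.0173 to 0.160 TPM, so by this gene WT replicate 7 was close to those labelled male. In WT replicate 3, mitochondrially encoded transcripts held 1.39% of the TPM, against 5.85 to 8.54% in the other 8 libraries. Values without each of these libraries are therefore given beside the results that turn on them. The deposited estimated counts totalled 37861469 to 49072920 per Δ*Gnas* library and 34252701 to 49427934 per WT library.

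Of the 10 genes, *Pde3b* was lower and *Pde8b* higher in Δ*Gnas* DCs, and the other 6 genes that could be tested did not pass the test. A gene is called changed here at an adjusted p (Benjamini-Hochberg) under 0.05 in edgeR's quasi-likelihood test, which was run on all 11862 genes with over 1 CPM (a count scaled by library size) in at least 3 libraries. *Pde3a* and *Pde10a* were below this level and were not tested. Among all genes tested, 9.56% were called, 5.41% higher and 4.15% lower in Δ*Gnas* DCs. The median log2 fold change of the 8 tested PDE genes was 0.06, against -0.0043 over all genes tested. Bulk RNA cannot tell apart fewer cells of a type and less RNA per cell, which holds for each difference below.

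**Figure D1:**
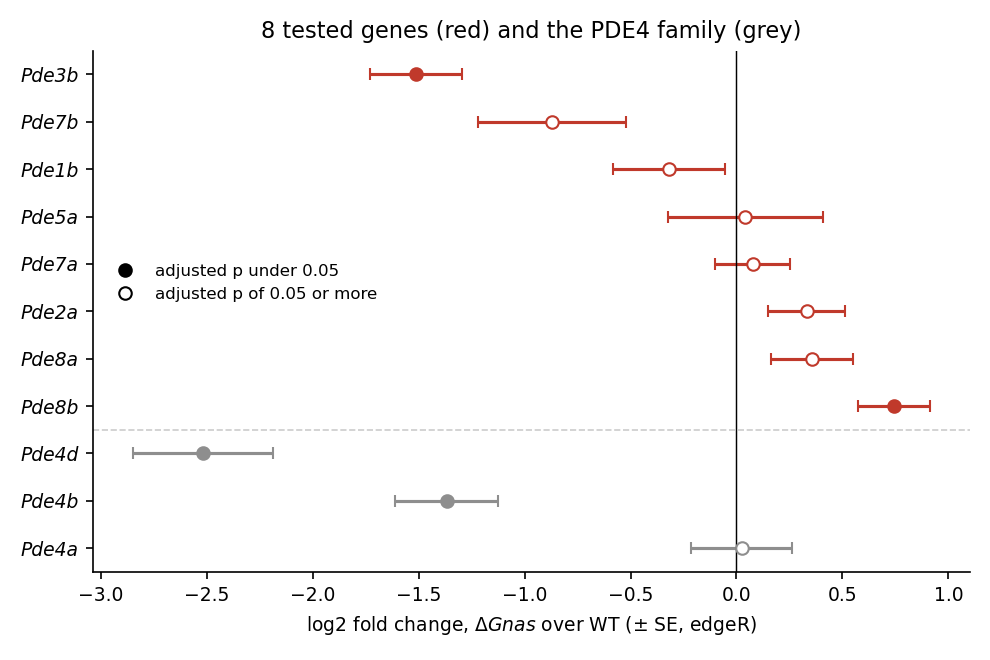
Log2 fold change of Δ*Gnas* over WT DCs (horizontal axis) for the 8 tested genes outside the PDE4 family (red) and the 3 tested PDE4 genes (grey), with SE as error bars and filled points for an adjusted p under 0.05 in edgeR. *Pde3b* lies at -1.51 ± 0.22 and *Pde8b* at 0.74 ± 0.17, and the other red points are open.

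Levels differed widely between the 10 genes in both genotypes. In Δ*Gnas* DCs the order of mean TPM was *Pde1b*, *Pde8a*, *Pde2a*, *Pde7a*, *Pde8b*, *Pde3b*, *Pde7b*, *Pde5a*, *Pde3a* and *Pde10a*, and in WT DCs it was *Pde1b*, *Pde3b*, *Pde8a*, *Pde2a*, *Pde7a*, *Pde7b*, *Pde8b*, *Pde5a*, *Pde10a* and *Pde3a*. Neighbours in this order mostly overlapped between libraries. In Δ*Gnas* DCs only *Pde7a* lay clear of *Pde8b*, *Pde7b* of *Pde5a*, and *Pde5a* of *Pde3a*, and in WT DCs only *Pde8b* lay clear of *Pde5a* and *Pde5a* of *Pde10a*. *Pde3b* was 6th in Δ*Gnas* DCs and 2nd in WT DCs, where its range overlapped that of *Pde8a* below it.

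**Figure D2:**
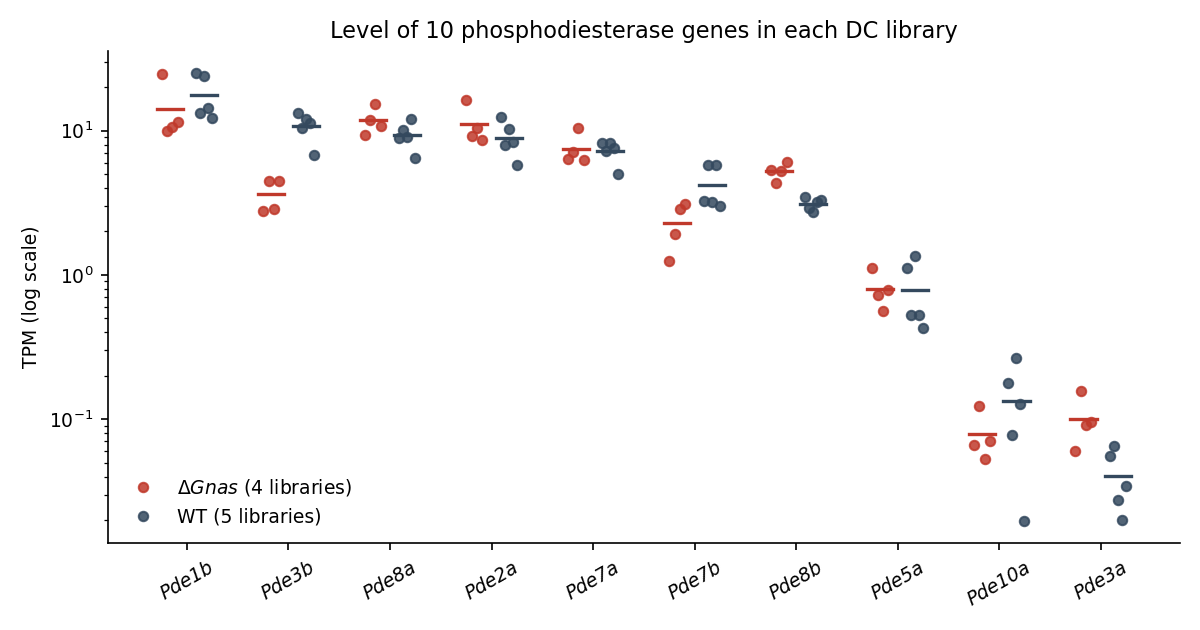
TPM on a log axis for each of the 10 genes in the 4 Δ*Gnas* (red, left) and 5 WT libraries (dark blue, right), with a bar at the group mean. The groups lie apart for *Pde3b* and *Pde8b*, while *Pde3a* and *Pde10a* stay under 0.3 TPM in every library.

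*Pde3b*, which encodes an insulin- and cAMP-regulated enzyme that hydrolyses cAMP and is inhibited by cGMP, fell in Δ*Gnas* DCs. Its level was 2.79, 4.45, 2.87 and 4.51 TPM in Δ*Gnas* replicates 3, 4, 6 and 7, against 13.2, 10.4, 12.04, 11.4 and 6.76 TPM in WT replicates 3 to 7. The groups did not overlap, and WT replicate 7, the lowest WT library, was above the highest Δ*Gnas* library. Of all genes tested, 10.6% had TPM ranges that did not overlap (6.92% higher and 3.72% lower in Δ*Gnas* DCs). The mean was 3.65 ± 0.954 TPM (SD, n = 4) in Δ*Gnas* DCs and 10.8 ± 2.44 TPM (SD, n = 5) in WT DCs. The log2 fold change was -1.51 ± 0.22 (SE), which is 2.85-fold lower in Δ*Gnas* DCs (edgeR, adjusted p = 0.00381). It was lower than the log2 fold change of all but 1.77% of the genes tested. Without WT replicate 7 the log2 fold change was -1.61 (edgeR, adjusted p = 0.00572), and without WT replicate 3 it was -1.51 (adjusted p = 0.00802). The gene spans chr7:114415281-114539251 (GRCm38, GENCODE M21) on the plus strand and overlaps no other annotated gene.

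Its partner *Pde3a*, the PDE3 gene better known from heart and platelets, was close to the limit of detection. It was at 0.0597, 0.156, 0.0918 and 0.0957 TPM in Δ*Gnas* replicates 3, 4, 6 and 7 and at 0.0555, 0.0651, 0.0277, 0.0199 and 0.0345 TPM in WT replicates 3 to 7. A count of 3 was worth 0.0607 to 0.0876 TPM in these libraries, and no estimated count of *Pde3a* exceeded 7.64 in Δ*Gnas* or 2.74 in WT libraries. The ranges met at Δ*Gnas* replicate 3 and WT replicate 4. When no filter was applied, the log2 fold change was 1.15 (edgeR, adjusted p = 0.384). With counts also rescaled by transcript length it was 1.36 (edgeR, unadjusted p = 0.0158, adjusted p = 0.138). Neither fit called *Pde3a*, and at such counts a difference is neither shown nor excluded. Nearly all PDE3 transcripts in these DCs were those of *Pde3b*.

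*Pde8b*, which encodes a cAMP-specific enzyme of high affinity that is insensitive to the common PDE inhibitor IBMX, rose in Δ*Gnas* DCs. Its level was 5.35, 4.30, 5.23 and 6.10 TPM in Δ*Gnas* replicates 3, 4, 6 and 7, against 3.45, 2.90, 2.73, 3.21 and 3.32 TPM in WT replicates 3 to 7. All Δ*Gnas* libraries were above all WT libraries, and the spread among WT libraries was narrow. The mean was 5.24 ± 0.738 TPM (SD, n = 4) in Δ*Gnas* DCs and 3.12 ± 0.300 TPM (SD, n = 5) in WT DCs, a log2 fold change of 0.74 ± 0.17 (SE) or 1.67-fold (edgeR, adjusted p = 0.0245). Of all genes tested, 93.2% had a lower log2 fold change. The call was lost when single libraries were left out, namely Δ*Gnas* replicate 6 (edgeR, adjusted p = 0.0637 in its absence), Δ*Gnas* replicate 7 (0.0827), WT replicate 3 (0.0527), WT replicate 4 (0.0587) and WT replicate 5 (0.0503). It held without Δ*Gnas* replicates 3 and 4 and without WT replicates 6 and 7, and without WT replicate 7 the log2 fold change was 0.83 (adjusted p = 0.0188). The gene lies at chr13:95024454-95250336 (GRCm38, GENCODE M21) on the minus strand, and its span overlaps the antisense genes *Gm48420* and *Gm16243* on the plus strand. Whether their exons overlap was not examined.

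*Pde8a*, the closest relative of *Pde8b*, was the more abundant PDE8 gene in every library. It was at 9.35, 11.9, 15.2 and 10.7 TPM in Δ*Gnas* replicates 3, 4, 6 and 7 and at 8.89, 10.1, 9.04, 12.1 and 6.41 TPM in WT replicates 3 to 7. The groups overlapped, with Δ*Gnas* replicate 3 below 2 of the WT libraries. The mean was 11.8 ± 2.51 TPM (SD, n = 4) in Δ*Gnas* DCs and 9.33 ± 2.08 TPM (SD, n = 5) in WT DCs, and the log2 fold change of 0.36 ± 0.20 (SE) did not pass the test (edgeR, adjusted p = 0.309). Without Δ*Gnas* replicate 6, the highest library, it was 0.22 (edgeR, adjusted p = 0.616). Of the summed PDE8 transcripts, *Pde8b* held 25.5 to 36.4% in Δ*Gnas* and 20.9 to 34.1% in WT libraries. These shares overlapped between the genotypes. *Pde8a* lies at chr7:81213596-81334533 on the plus strand.

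The sequences before the transcription starts of the PDE8 genes are shown because *Pde8b* was called and *Pde8a* was not, and because the factor CREB, activated by cAMP, binds the element TGACGTCA or its shorter form TGACG. The 250 bases before a start were read from RefSeq (GRCm38.p6), in which 7 of the 10 genes had an entry, with 18 starts among them. *Pde3a*, *Pde3b* and *Pde7a* had no entry, so the counts of matches do not cover *Pde3b*. TGACGTCA was in 0 of these 18 windows and in 1.55% of the 32851 mouse windows of the same length. TGACG, searched on both strands and also contained in the longer element, was in 1 of the 18, that of *Pde8a*, 84 bases before the start, and in 17.8% of all windows. Such a match describes letters only and shows no binding. *Pde8b* has 5 annotated starts in the table, and the window shown is before the farthest upstream, whereas *Pde8a* has 1. Capitals mark TGACG, and both are written 5′ to 3′ on the strand of the gene, chr7:81213015-81213264 (plus) for *Pde8a* and chr13:95250337-95250586 (minus) for *Pde8b*.
Pde8a: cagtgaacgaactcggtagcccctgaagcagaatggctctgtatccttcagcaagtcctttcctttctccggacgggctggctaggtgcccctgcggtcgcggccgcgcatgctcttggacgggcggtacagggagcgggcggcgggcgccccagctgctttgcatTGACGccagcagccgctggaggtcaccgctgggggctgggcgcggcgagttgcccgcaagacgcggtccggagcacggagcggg
Pde8b: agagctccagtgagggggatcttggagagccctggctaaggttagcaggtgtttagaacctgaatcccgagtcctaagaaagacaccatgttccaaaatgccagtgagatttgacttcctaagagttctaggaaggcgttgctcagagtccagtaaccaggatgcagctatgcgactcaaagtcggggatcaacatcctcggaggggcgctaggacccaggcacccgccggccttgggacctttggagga

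The opposite changes of *Pde3b* and *Pde8b* turned their order round in 3 of the 4 Δ*Gnas* libraries. Per transcript length, *Pde8b* stood at 1.92, 0.967, 1.82 and 1.35 times the level of *Pde3b* in Δ*Gnas* replicates 3, 4, 6 and 7, and at 0.263, 0.278, 0.226, 0.282 and 0.491 times in WT replicates 3 to 7. Every Δ*Gnas* ratio was above every WT ratio, and in Δ*Gnas* replicate 4 the genes were nearly level. This pair was chosen after its values were seen, and the ratio was not tested. *Pde3b* alone made up 4.15 to 8.93% of the summed TPM of the 10 genes in Δ*Gnas* libraries and 15.7 to 17.9% in WT libraries.

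**Figure D3:**
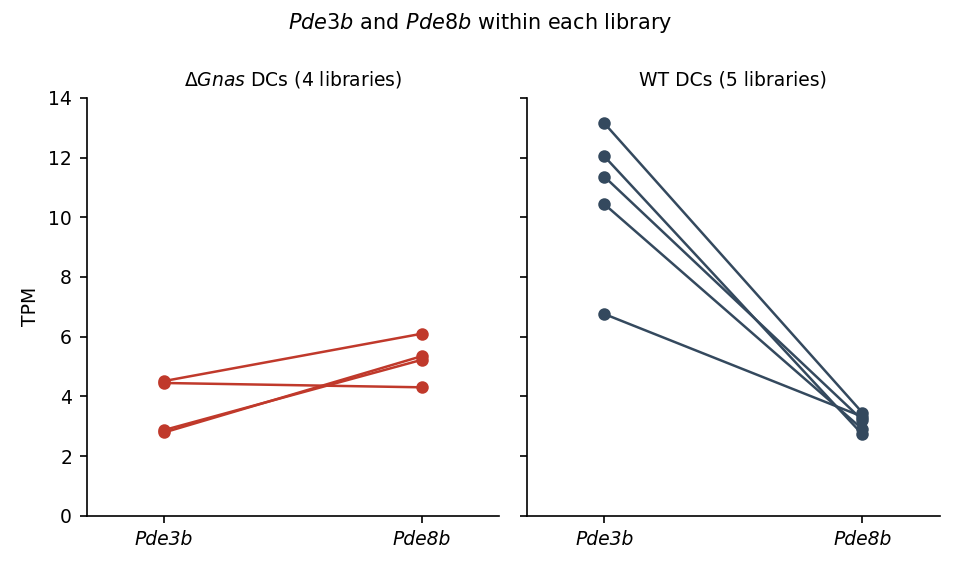
TPM of *Pde3b* and *Pde8b* joined within each library, for 4 Δ*Gnas* libraries (left, red) and 5 WT libraries (right, dark blue). The line climbs in 3 of 4 Δ*Gnas* libraries and drops in all 5 WT libraries.

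Markers of other cell types moved with genotype as well. Macrophage markers summed to 1296 to 1978 TPM in Δ*Gnas* and 2872 to 4025 TPM in WT libraries, with 6 of 9 lower and 0 higher by edgeR, the complement genes *C1qa*, *C1qb* and *C1qc* among the 6, while *Csf1r* was at 468 ± 52.5 TPM (SD, n = 4) in Δ*Gnas* and 466 ± 109 TPM (SD, n = 5) in WT DCs. Eosinophil markers summed to 76.9 to 142 TPM in Δ*Gnas* and 10.7 to 23.4 TPM in WT libraries, with 2 of 3 tested higher, *Siglecf* and *Ear1*. *Prg2*, the other marker tested, was at 12.3 ± 4.85 TPM (SD, n = 4) in Δ*Gnas* and 8.35 ± 5.00 TPM (SD, n = 5) in WT DCs (edgeR adjusted p = 0.589). The granule gene *Epx* was below 1 TPM in every library. Of the megakaryocyte and platelet markers 0 of 5 tested were called, and their sum was 128 to 273 TPM in Δ*Gnas* and 160 to 829 TPM in WT libraries. *Pf4* made up most of this sum in every library, at 125 ± 75.6 TPM (SD, n = 4) in Δ*Gnas* and 426 ± 275 TPM (SD, n = 5) in WT DCs. The median log2 fold change of the 5 tested was 0.75, so the sum and most of the list ran in opposite directions. Sums for T cells were small, at 4.56 to 11.5 TPM in Δ*Gnas* and 2.81 to 5.84 TPM in WT libraries, with 2 of 4 tested higher. Of these, *Cd3g* was at 0.206 to 0.820 TPM in WT libraries and met the filter only through Δ*Gnas* libraries. Sums for mast cells or basophils were also small, at 6.71 to 13.9 TPM in Δ*Gnas* and 9.77 to 22.1 TPM in WT libraries, with 1 of 2 tested lower, *Kit*. *Mcpt8*, the other tested, went the other way without a call (log2 fold change 2.22, edgeR adjusted p = 0.0958). Of the neutrophil markers 0 of 4 were called, with sums of 131 to 893 TPM in Δ*Gnas* and 82.8 to 264 TPM in WT libraries. Markers of B cells, NK cells and erythroid cells summed to at most 5.45 TPM in any library, and those of stromal and endothelial cells to at most 11.7 TPM. No marker gene was listed at 0 in all libraries. The part of these cells in the differences of *Pde3b* and *Pde8b* was not tested.

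PDE7 enzymes hydrolyse only cAMP and are insensitive to the PDE4 inhibitor rolipram. *Pde7b* was at 1.24, 1.91, 2.85 and 3.13 TPM in Δ*Gnas* replicates 3, 4, 6 and 7, against 3.28, 5.79, 3.21, 5.79 and 2.998 TPM in WT replicates 3 to 7. The groups met only where Δ*Gnas* replicate 7 lay above WT replicate 7, yet the spread within each was wide. The mean was 2.28 ± 0.869 TPM (SD, n = 4) in Δ*Gnas* DCs and 4.21 ± 1.44 TPM (SD, n = 5) in WT DCs, and the log2 fold change of -0.87 ± 0.35 (SE) had an unadjusted p of 0.0315 and did not pass the test (edgeR, adjusted p = 0.159). No alternative analysis called it, with an adjusted p between 0.0657 and 0.306. The gene spans chr10:20398004-20725078 on the minus strand (GRCm38), which also holds the pseudogenes *Gm17229* and *Gm17230*.

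*Pde7a*, widely expressed in leukocytes, was at 6.35, 7.13, 10.4 and 6.22 TPM in Δ*Gnas* replicates 3, 4, 6 and 7 and at 8.15, 7.18, 8.22, 7.61 and 4.97 TPM in WT replicates 3 to 7. The ranges overlapped because Δ*Gnas* replicate 6 was the highest of all 9 libraries and WT replicate 7 the lowest, while the other Δ*Gnas* libraries lay just below the other WT libraries. Its mean was 7.51 ± 1.93 TPM (SD, n = 4) in Δ*Gnas* DCs and 7.23 ± 1.33 TPM (SD, n = 5) in WT DCs (log2 fold change 0.08 ± 0.18 SE, edgeR adjusted p = 0.840). Of the summed PDE7 transcripts, *Pde7b* held 16.3, 21.1, 21.6 and 33.5% in Δ*Gnas* replicates 3, 4, 6 and 7 and 28.7, 44.6, 28.1, 43.2 and 37.6% in WT replicates 3 to 7. Only Δ*Gnas* replicate 7 reached into the WT range, and the share was not tested, having been chosen after the values were seen.

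*Pde1b*, the calmodulin-activated enzyme known in macrophages and neurons, had the highest mean of the 10 genes in both genotypes. Its level was 24.6, 9.95, 10.6 and 11.6 TPM in Δ*Gnas* replicates 3, 4, 6 and 7, against 25.0, 13.3, 23.8, 14.3 and 12.3 TPM in WT replicates 3 to 7. The high libraries, Δ*Gnas* replicate 3 and WT replicates 3 and 5, came from both genotypes, and Δ*Gnas* replicate 3 stood more than 2-fold above the other Δ*Gnas* libraries. With means of 14.2 ± 6.95 TPM (SD, n = 4) in Δ*Gnas* and 17.8 ± 6.14 TPM (SD, n = 5) in WT DCs, the log2 fold change of -0.32 ± 0.26 (SE) did not pass the test (edgeR, adjusted p = 0.515). Without Δ*Gnas* replicate 3 it was -0.67, over 1.5 times as large in size, and again did not pass (edgeR, adjusted p = 0.0596). It was over 1.5 times smaller in size without WT replicate 5 (-0.19), Δ*Gnas* replicate 4 (-0.20) or Δ*Gnas* replicate 6 (-0.21).

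The same 3 libraries were the highest for *Pde5a*, the cGMP-specific enzyme targeted by sildenafil. *Pde5a* was at 1.11, 0.723, 0.562 and 0.781 TPM in Δ*Gnas* replicates 3, 4, 6 and 7 and at 1.11, 0.525, 1.34, 0.531 and 0.428 TPM in WT replicates 3 to 7. The means were close, 0.795 ± 0.233 TPM (SD, n = 4) in Δ*Gnas* and 0.788 ± 0.412 TPM (SD, n = 5) in WT DCs, with a log2 fold change of 0.04 ± 0.37 (SE) and no call (edgeR, adjusted p = 0.961). The pattern, noticed after the values were seen, was shared by 1526 of the 11862 genes (12.9%), among them *Pde4a*. Of the 10 DC markers listed, 2 shared it, the transcription factors *Batf3* and *Irf4*, and the others did not. *Batf3* was at 133 TPM in Δ*Gnas* replicate 3 against 53.3 to 75.5 TPM in the other Δ*Gnas* libraries, and at 204 and 120 TPM in WT replicates 3 and 5 against 58.6 to 95.9 TPM in the other WT libraries. The part of this pattern in the levels of *Pde1b* and *Pde5a* was not tested.

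*Pde2a*, the cGMP-stimulated enzyme, was at 16.4, 9.11, 10.4 and 8.60 TPM in Δ*Gnas* replicates 3, 4, 6 and 7 and at 12.5, 7.89, 10.2, 8.31 and 5.74 TPM in WT replicates 3 to 7. Replicate 3 was the highest in each genotype, and the ranges overlapped. The mean was 11.1 ± 3.58 TPM (SD, n = 4) in Δ*Gnas* DCs and 8.92 ± 2.54 TPM (SD, n = 5) in WT DCs (log2 fold change 0.33 ± 0.18 SE, edgeR adjusted p = 0.308), and the log2 fold change was 0.13 without Δ*Gnas* replicate 3 (adjusted p = 0.642). Its annotated span, chr7:101421691-101512827 on GRCm38, also holds *Mir139* and the model *Gm45837* on the same strand.

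*Pde10a*, an enzyme of striatal neurons, was barely present, as in the case of *Pde3a*. It was at 0.0662, 0.124, 0.0533 and 0.0701 TPM in Δ*Gnas* replicates 3, 4, 6 and 7 and at 0.178, 0.0773, 0.266, 0.127 and 0.0197 TPM in WT replicates 3 to 7, with no estimated count above 6.09 in Δ*Gnas* or 9.11 in WT libraries. The ranges overlapped, and edgeR without a filter gave an adjusted p of 0.619.

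Added together, the 10 genes had sums that overlapped between the genotypes. Their sum was 56.8 ± 7.86 TPM (SD, n = 4) in Δ*Gnas* libraries, between 49.8 and 67.2, and 62.3 ± 12.7 TPM (SD, n = 5) in WT libraries, between 43.0 and 75.8. The members specific for cAMP (*Pde7a*, *Pde7b*, *Pde8a* and *Pde8b*) summed to 26.9 ± 4.84 TPM (SD, n = 4) in Δ*Gnas* and 23.9 ± 4.08 TPM (SD, n = 5) in WT libraries, and the members that act on both nucleotides (*Pde1b*, *Pde2a*, *Pde3a*, *Pde3b* and *Pde10a*) to 29.1 ± 9.81 TPM (SD, n = 4) in Δ*Gnas* and 37.6 ± 10.7 TPM (SD, n = 5) in WT libraries. Each of these ranges overlapped between the genotypes, and the spread within a genotype exceeded the difference of the means for the sum of all 10.

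The PDE4 family, by contrast, summed to 66.0 ± 20.96 TPM (SD, n = 4) in Δ*Gnas* and 174 ± 37.1 TPM (SD, n = 5) in WT libraries. *Pde4b* was at 58.6 ± 19.4 TPM (SD, n = 4) in Δ*Gnas* and 152 ± 33.0 TPM (SD, n = 5) in WT DCs (log2 fold change -1.37, edgeR adjusted p = 0.00879), and *Pde4d* at 2.96 ± 1.54 TPM (SD, n = 4) in Δ*Gnas* and 17.1 ± 5.06 TPM (SD, n = 5) in WT DCs (log2 fold change -2.52, edgeR adjusted p = 0.00249). Of the transcripts of all 21 genes for catalytic PDE subunits, the 10 genes outside PDE4 held 47.1, 42.0, 40.6 and 58.3% in Δ*Gnas* replicates 3, 4, 6 and 7, against 28.5, 22.0, 29.4, 24.8 and 27.8% in WT replicates 3 to 7. Every Δ*Gnas* share was above every WT share, with means of 47.0 ± 8.01% (SD, n = 4) in Δ*Gnas* and 26.5 ± 3.03% (SD, n = 5) in WT libraries. The share is a description and rests on the lower sum of the PDE4 genes. *Pde4b* alone held 46.5% in Δ*Gnas* and 64.4% in WT libraries on average, and was above each of the 10 genes in every library.

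**Figure D4:**
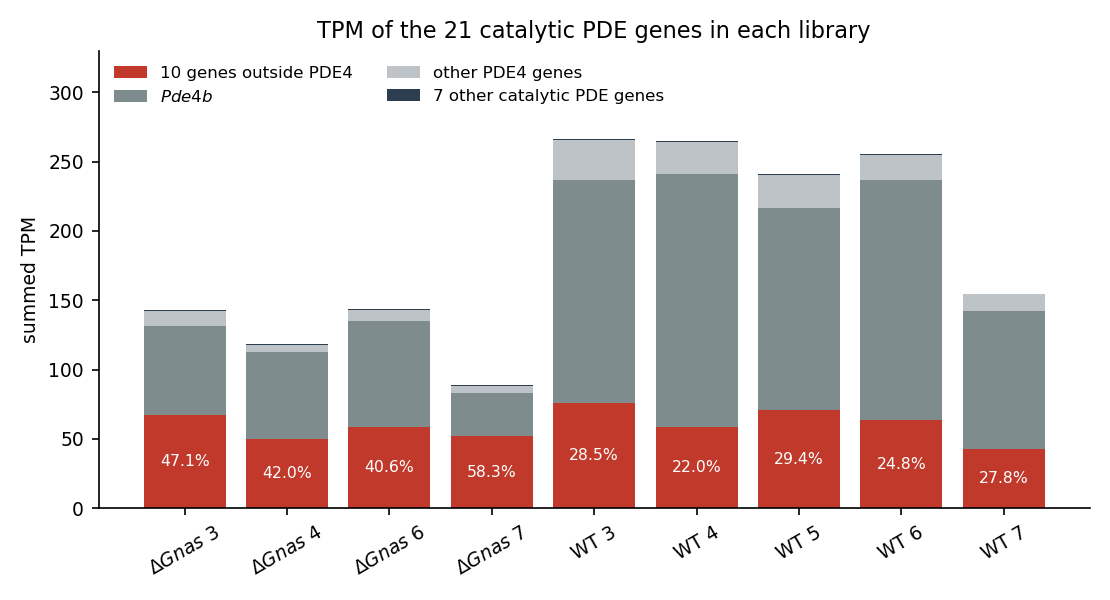
Summed TPM of the 21 catalytic PDE genes in each library, split into the 10 genes outside PDE4 (red, with their percent of the total), *Pde4b*, the other PDE4 genes, and 7 further catalytic genes. The red part is 49.8 to 67.2 TPM in Δ*Gnas* and 43.0 to 75.8 TPM in WT libraries, while its share is 40.6 to 58.3% in Δ*Gnas* and 22.0 to 29.4% in WT libraries.

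The remaining PDE genes added little. Of 10 listed (*Pde1a*, *Pde1c*, *Pde9a*, *Pde11a* and the photoreceptor PDE6 genes) 1 was tested, *Pde6d*, which encodes a prenyl-binding chaperone rather than a hydrolase, at 25.5 ± 3.25 TPM (SD, n = 4) in Δ*Gnas* and 26.5 ± 8.20 TPM (SD, n = 5) in WT DCs (edgeR adjusted p = 0.928). *Pde9a*, which hydrolyses cGMP, was the highest of the others, at 0.145 to 0.760 TPM in Δ*Gnas* libraries and between 0 and 0.327 TPM in WT libraries.

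Adenylyl cyclases make cAMP from ATP. Of 10 adenylyl cyclases 5 were tested and 1 was called, *Adcy4*, at 0.413 ± 0.202 TPM (SD, n = 4) in Δ*Gnas* and 1.41 ± 0.652 TPM (SD, n = 5) in WT DCs (log2 fold change -1.72, edgeR adjusted p = 0.0326). At 0.246 to 0.703 TPM in Δ*Gnas* libraries, *Adcy4* met the filter of over 1 CPM only through WT libraries, where it was high. The count of calls was 0 when Δ*Gnas* replicate 6 or 7 or WT replicate 4 or 5 was left out, with the filter at 5 CPM or with a term for sex, and 2 when Δ*Gnas* replicate 3 or WT replicate 6 was left out or by DESeq2 or the exact test. The abundant members *Adcy6* (log2 fold change -0.66, edgeR adjusted p = 0.453) and *Adcy7* (0.49, adjusted p = 0.0697) did not pass.

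Among 11 genes for effectors and efflux of cAMP, 7 were tested and 1 was called. *Prkar2b*, the RIIβ regulatory subunit of protein kinase A, was at 11.1 ± 1.66 TPM (SD, n = 4) in Δ*Gnas* and 27.3 ± 12.5 TPM (SD, n = 5) in WT DCs (log2 fold change -1.25, edgeR adjusted p = 0.00701). The count was 2 without Δ*Gnas* replicate 3, by DESeq2 and by the exact test. *Prkar1a*, the most abundant regulatory subunit, was at 112 ± 4.77 TPM (SD, n = 4) in Δ*Gnas* and 129 ± 21.1 TPM (SD, n = 5) in WT DCs (edgeR adjusted p = 0.272), and *Prkaca*, a catalytic subunit, had a log2 fold change of 0.10 (adjusted p = 0.535).

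The nucleotide cGMP regulates PDE2A, PDE3B and PDE5A. Of 15 genes for its synthesis, effectors and export, 3 were tested and each was called, against 9.56% called among all genes tested. The count changed with the libraries and the method. *Npr1*, the receptor for atrial natriuretic peptide that makes cGMP, was at 5.23 to 37.5 TPM in Δ*Gnas* and 37.7 to 156 TPM in WT libraries (log2 fold change -2.14, edgeR adjusted p = 0.0394). *Nos2*, the inducible nitric oxide synthase, was at 1.77 ± 1.40 TPM (SD, n = 4) in Δ*Gnas* and 0.192 ± 0.136 TPM (SD, n = 5) in WT DCs (log2 fold change 3.17, edgeR adjusted p = 0.0111). At 0.0797 to 0.425 TPM in WT libraries, it met the filter of over 1 CPM only through Δ*Gnas* libraries, where it was high. *Abcc5*, an exporter of cyclic nucleotides, was at 68.2 ± 3.98 TPM (SD, n = 4) in Δ*Gnas* and 47.8 ± 14.4 TPM (SD, n = 5) in WT DCs (log2 fold change 0.55, edgeR adjusted p = 0.0348). The number called was 0 without Δ*Gnas* replicate 4 or 7, and 1 without Δ*Gnas* replicate 6, WT replicate 4 or WT replicate 5, or with no filter. It was 2 when Δ*Gnas* replicate 3 or WT replicate 3, 6 or 7 was left out, with the filter at 5 CPM and by both limma-trend fits.

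Of 11 genes for binding partners and kinases of the PDEs, all 11 were tested and 1 was called. *Pik3cg*, the catalytic subunit of phosphoinositide 3-kinase γ, which anchors PDE3B in heart cells, was at 16.2 ± 2.67 TPM (SD, n = 4) in Δ*Gnas* and 34.1 ± 10.6 TPM (SD, n = 5) in WT DCs (log2 fold change -1.05, edgeR adjusted p = 0.00691). *Calm2*, a gene for calmodulin, the activator of PDE1, did not pass (log2 fold change 0.51, edgeR adjusted p = 0.122). The count was 2 without Δ*Gnas* replicate 3, by DESeq2 and by both limma-trend fits on log2 TPM.

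The genes whose log2 CPM most resembled *Pde3b* over the 9 libraries were *Gpatch3* (Pearson r = 0.977), *3110053B16Rik* (r = 0.976) and *Rab6b* (r = 0.962). Those most like *Pde8b* were *Acadl* (r = 0.972), *Evl* (r = 0.970) and *Stk38* (r = 0.960). These values are a description over 9 libraries that share the split by genotype, and they were picked as the highest of the 11862 genes. All 3 genes listed for *Pde3b* were called lower in Δ*Gnas* DCs, and *Evl* and *Stk38* were called higher. *Rab6b*, at a mean of 0.0857 TPM in Δ*Gnas* and 2.55 TPM in WT DCs, met the filter only through WT libraries.

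No tested PDE gene passed the test for an interaction of genotype and sex. In edgeR, 0 of 8 passed, with 0 at an unadjusted p under 0.05 and a smallest unadjusted p of 0.172, and over all genes 0 of 11862 passed, with 172 at an unadjusted p under 0.05. When WT replicate 7 was left out, a choice made after seeing the data, 0 of 8 passed and the smallest unadjusted p was 0.258.

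The calls of *Pde3b* and *Pde8b* were then compared across other tools and filters. *Pde3b* was called in 22 of 22 alternatives, with a log2 fold change from -1.65 to -1.38 when a library was left out and an adjusted p of at most 0.0210. *Pde8b* was called in 17 of 22, and the 5 without a call were fits without the libraries named above. Over all 9 fits that leave out a library, its log2 fold change lay between 0.64 and 0.83. *Pde7b* was tested in 21 alternatives, since it failed the filter of over 5 CPM, and was called in 0 of them.

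**Figure D5:**
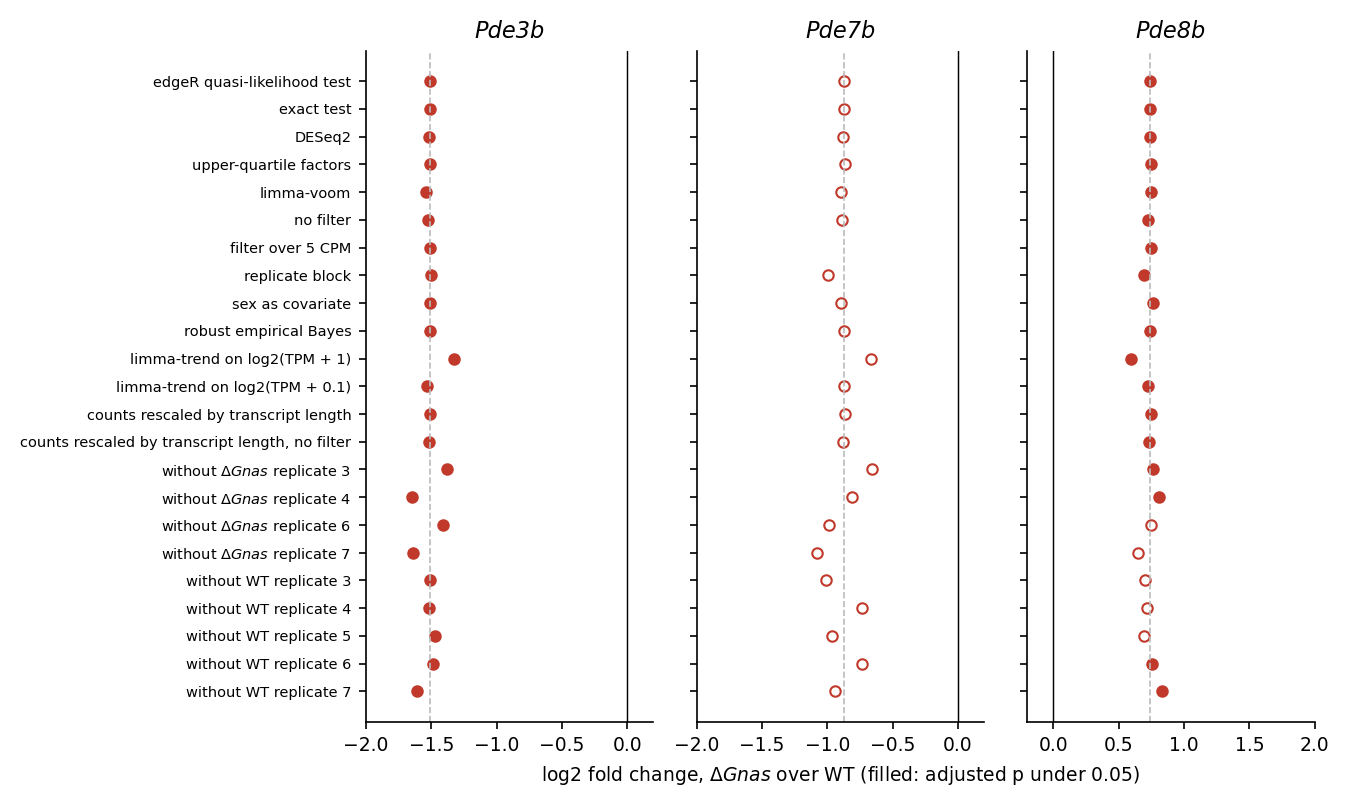
Log2 fold change of Δ*Gnas* over WT DCs (horizontal axis) for *Pde3b*, *Pde7b* and *Pde8b* under each analysis (rows), filled where the adjusted p is under 0.05, with a dashed line at the reported value. *Pde3b* is filled throughout, *Pde7b* nowhere, and *Pde8b* in all but 5 of the fits that leave out a library.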

How the data were processed

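Per the study's methods, the authors made stranded mRNA libraries, trimmed adapters, assigned reads to mouse transcripts with Kallisto and summed them to genes with Tximport. The submitters' notes name FastQC, kallisto, edgeR and GRCm38. The deposited table holds TPM and estimated counts for 30620 features. 32 name no gene (0.0843 to 0.121% of counts) and were left out. Within a library the deposited estimated counts are TPM times a single factor, so they carry no gene length.

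Counts were rounded, scaled by TMM (factors 0.825 to 1.21), filtered at over 1 CPM in at least 3 libraries and fitted in edgeR 4.0.16 (R 4.3.3) by glmQLFit and glmQLFTest, unpaired, with Benjamini-Hochberg adjustment over 11862 genes. The study used edgeR's exact test, run here as an alternative. SE was derived from the fold change and the F statistic. The script was tested on simulated data. Levels were compared between genes as TPM. The study names the cultures biological replicates.

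Other tools were DESeq2 1.42.0, edgeR's exact test and robust fit, and limma 3.58.1 (voom, and trend on log2(TPM + 1) or log2(TPM + 0.1)). Further alternatives were scaling by the upper quartile, no filter, a filter at 5 CPM, a term for sex, a block for replicate number, and each library left out. Counts rescaled by transcript length (GENCODE M21) and the test for a sex difference lacking WT replicate 7 were chosen after seeing the data. The 10 genes, the lists and the rule for named genes were chosen with earlier results of these data known. The text names all 10 genes, the called members of each list and otherwise up to 2 by highest mean TPM (1 such gene is not reported here), and for each called gene the 3 most correlated genes. *C1qa*, *C1qb*, *C1qc*, *Csf1r*, *Siglecf*, *Ear1*, *Epx*, *Batf3*, *Irf4*, *Ddx3y* and *Pde4a* were named after their values were seen. The same holds for *Prg2*, *Pf4*, *Kit*, *Mcpt8*, *Cd3g*, *Itgax*, *H2-Aa*, *H2-Ab1*, *Cd74*, *Zbtb46* and *Ccr7*.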

Additional observations from a re-analysis of the deposited data

Results flagged for a closer look

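*Pde1b* in Δ*Gnas* replicate 3 was far from the other Δ*Gnas* libraries, at 24.6 TPM against 9.95 to 11.6 TPM. It was the only value to stand apart in this way among the 24 groups of libraries checked, of which chance gives about 1 in 20. WT replicates 3 and 5 had similar levels of *Pde1b*, 25.0 and 23.8 TPM.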

How the results depend on the processing

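Across all genes DESeq2 called 1769, against 1134 by edgeR's quasi-likelihood test. When a library was left out, 519 to 1586 genes and 1 to 2 of the 10 PDE genes were called. In those fits the log2 fold change of *Pde5a* ran from -0.084 to 0.18 and that of *Pde7a* from -0.11 to 0.17, turning sign while neither was called. The cause was not tested. In all other alternatives 2 of the PDE genes were called, *Pde3b* and *Pde8b*, and the signs of the other 6 tested genes did not change.

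No source used here says that replicates with the same number share a litter, batch or day, and whether they do was not settled by the data. The correlation of their deviations from the group means was 0.29, -0.04, 0.25 and 0.16 for numbers 3, 4, 6 and 7. Pairs of unlike number ran from -0.25 to 0.22. For Δ*Gnas* replicates 3, 6 and 7 the best match was the WT library of the same number. Δ*Gnas* replicate 4 correlated best with WT replicate 7 (0.22). With the number as a block, 1188 genes were called and the log2 fold changes of *Pde3b* and *Pde8b* were -1.51 (edgeR, adjusted p = 0.0210) and 0.69 (adjusted p = 0.0379), while 2 of the 3 cGMP genes were called.

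The filter of over 5 CPM removed *Pde5a* and *Pde7b*, and *Pde5a* also failed the filter in some fits without a library. Estimated counts carry no gene length, so the precision of long genes may be misjudged. Rescaling by transcript length called 1168 genes and the same 2 PDE genes. Counts below about 3 limit what can be said of *Pde3a* and *Pde10a*.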
